A study of Mus musculus with 4 samples.

Results

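Calprotectin is the complex of 2 small calcium-binding proteins encoded by S100a8 and S100a9, and stefin A is a cysteine protease inhibitor that the mouse encodes in several neighbouring gene copies. The 6 genes described here, S100a8, S100a9, Stfa1, Stfa2, Stfa2l1 and Stfa3, were chosen by symbol among the 32285 genes of the files, and each symbol matched 1 row. They were counted in spleen cells of 4 female C57BL/6J mice, of which 2 were wild type (WT) and 2 carried a CRISPR-made knock-in of Ccnd3, the cyclin D3 gene (D3TA). In the D3TA mice, threonine 283 of the protein was changed to alanine on 1 of the 2 alleles, in every cell from conception on. The mice were between 12 and 16 months of age, when D3TA animals have a myeloproliferative neoplasm, and each library came from 1 mouse. Which mouse had which age is not given, and gene counts do not show the edited codon. Red blood cells had been lysed before loading.

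Calprotectin fills much of the cytosol of neutrophils, where it binds calcium, and it takes zinc and manganese from microbes once released. Outside cells it is known as an alarm signal that acts through Toll-like receptor 4. Stefins stay in the cytosol and block cathepsins, the cysteine proteases of lysosomes and granules. Neutrophils form from cycling precursors, which load the primary granules, through immature cells, which make the secondary granule proteins Ngp, Camp and Ltf, to mature cells that carry Cxcr2.

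The genes lie in clusters. On GRCm38, S100a8 spans chr3:90668978-90670035 on the plus strand and S100a9 chr3:90692632-90695721 on the minus strand, both protein coding with 3 exons. The stefin A genes share a stretch of 335.45 kb on chromosome 16 with 6 further cystatin genes. Within it, Stfa2l1 lies at chr16:36156811-36161953 and Stfa1 at chr16:36276951-36285373 on the plus strand, and Stfa2 at chr16:36403992-36408457 and Stfa3 at chr16:36450537-36455392 on the minus strand. Each of these 4 has 3 exons.

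How well reads can tell the copies apart bears on every stefin value below. Over their coding sequences, Stfa2 and Stfa2l1 were identical at 96.4% of aligned bases and Stfa2l1 and Stfa3 at 81.6%. The first 60 coding bases are shown for these 3, with capitals where a base differs from Stfa2l1.
Stfa2l1: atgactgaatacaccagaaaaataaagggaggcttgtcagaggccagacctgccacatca
Stfa2: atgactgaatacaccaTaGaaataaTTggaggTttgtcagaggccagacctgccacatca
Stfa3: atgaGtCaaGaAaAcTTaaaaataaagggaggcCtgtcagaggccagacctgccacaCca
Stfa2 differed at 5 of these bases and Stfa3 at 9. Of all stretches of 50 bases in a transcript, 24.6% in Stfa2l1 and 15.9% in Stfa2 also occurred in another gene, in each case including the other of this pair. For Stfa1 the share was 25.4%, with Cstdc5 and Cstdc6 as the other genes. For S100a8, S100a9 and Stfa3 it was 0%. Values of Stfa1, Stfa2 and Stfa2l1 are therefore uncertain as to the copy, since reads from shared stretches could be assigned to a neighbour or dropped.

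The 4 stefin A genes also held the same letters upstream of their starts, as did some of their neighbours in the cluster. The 70 bases before the RefSeq start (GRCm38.p6) are shown with the motif TTTAAAA in capitals for the stefin A genes and TATAAA for S100a8, because Stfa1, Stfa2 and Stfa2l1 were all higher in mature than in immature cells as given below, while Stfa3 had another course.
S100a8: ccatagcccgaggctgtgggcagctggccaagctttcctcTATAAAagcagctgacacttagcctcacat
Stfa1: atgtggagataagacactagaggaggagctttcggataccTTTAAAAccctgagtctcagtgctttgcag
Stfa2: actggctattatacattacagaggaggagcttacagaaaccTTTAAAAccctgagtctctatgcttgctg
Stfa2l1: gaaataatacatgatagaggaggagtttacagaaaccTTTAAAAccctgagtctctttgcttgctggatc
Stfa3: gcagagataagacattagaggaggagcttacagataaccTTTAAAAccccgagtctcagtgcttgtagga
The motif began 30, 29, 33 and 31 bases before the start of Stfa1, Stfa2, Stfa2l1 and Stfa3. In S100a8, TATAAA began 30 bases before the start, and in S100a9 it began at the annotated start itself. The cystatin genes Cstdc4, Csta3 and Cstdc5 of this cluster held TTTAAAA on the sense strand too, beginning 29, 77 and 9 bases before the start, so it is not a trait of the 4 genes alone. All 6 genes were matched in the promoter table. Among its 32851 promoters of 300 bases, 5.76% held TTTAAAA on the sense strand and 8.74% on either strand, and 8.32% and 13.6% held TATAAA. Of the 4 stefin A windows and that of S100a8, none held both motifs, and a match describes letters only.

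Cells were assigned to classes by markers that include none of the 6 genes. Of 52330 analysed cells, 42036 passed a gate. In every class checked all markers were higher than in the other cells. The gate chose cells by these same markers, so this is no independent check of the classes. WT replicate 1 stood apart, with a median of 1393 unique molecular identifiers (UMIs, counted RNA molecules) per cell against 7559 to 7919 in the other libraries. It also had 71.3% of cells gated against 84.9% to 91.7%. Of all barcodes, 421 occurred in more than 1 library. Cells of the neutrophil lineage were 1.55% and 2.05% of gated cells in WT and 40.2% and 24.5% in D3TA. Mature cells made up 88.3% and 86.1% of the lineage in WT, but 23.2% and 17.1% in D3TA. WT libraries held only 9 and 16 immature cells and 20 and 1 precursors, so levels before the mature stage rest on D3TA mice. In a whole spleen, more cells of a type and more RNA per cell cannot be told apart.

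In the whole spleen, calprotectin transcripts were far more abundant in D3TA mice. S100a8 plus S100a9 made up 0.165% and 0.188% of all UMIs in the WT libraries, and 8.86% and 5.08% in the D3TA libraries. The means were 0.177% ± 0.0162 (SD, n = 2) and 6.97% ± 2.67 (SD, n = 2), and the groups did not overlap. Among the 18344 genes tested singly in the whole spleen, 57.5% did not overlap either. The exact two-sided permutation test gave p = 0.333, the smallest p that 2 against 2 libraries allow.

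Taken singly, S100a8 stood at 728 and 794 CPM in WT (CPM: a gene's UMIs scaled to a common total for the cells counted) and at 37905 and 24078 in D3TA. Both D3TA libraries lay far above both WT libraries. edgeR's quasi-likelihood test over 18344 genes gave a log2 fold change of 5.45 ± 0.51 (SE) for S100a8 and 5.37 ± 0.59 for S100a9, with Benjamini-Hochberg adjusted p of 0.0108 and 0.0135. These were the 2 of 6 genes called, beside 6.08% of all genes tested and 5.7% called higher. Both calls were lost without WT replicate 2 (adjusted p = 0.0787 and 0.0946), and that of S100a9 without WT replicate 1 (adjusted p = 0.0503), while the fold changes stayed between 5.24 and 5.51.

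The stefin A genes were also higher in both D3TA libraries, without passing the test. Stfa2l1 stood at 6.59 and 3.86 CPM in WT and 34.7 and 13.2 in D3TA, with a log2 fold change of 2.31 ± 0.57 and an adjusted p of 0.0922. Stfa1 stood at 1.04 and 0.190 in WT and 5.57 and 3.51 in D3TA, and Stfa2 at 0.258 and 0.0408 in WT and 1.30 and 0.540 in D3TA. DESeq2 called these 3 genes, with adjusted p of 0.000237 for Stfa2l1, 0.000788 for Stfa1 and 0.0496 for Stfa2. Stfa3 stood at 0.271 and 0.680 in WT and 12.9 and 0.878 in D3TA, so 1 library carried its difference. Its log2 fold change was 4.00 ± 1.36 (adjusted p = 0.176).

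The UMIs of these genes came from different cells, as the plot of UMI sources shows. Immature neutrophils held 67.3% and 73.6% of all S100a8 UMIs in the D3TA libraries, and mature neutrophils 4.71% and 2.07%. In WT, where few immature cells were seen, these cells still held 24.3% and 58.6% and mature neutrophils 35.6% and 22.8%. Stfa2l1 was placed otherwise, with 62.1% and 67.6% of its UMIs in mature neutrophils in WT and 64.3% and 57.7% in D3TA. Cells called doublets held 10.6% of the S100a8 UMIs and 23.2% of the Stfa1 UMIs of D3TA replicate 1.

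**Figure D1:**
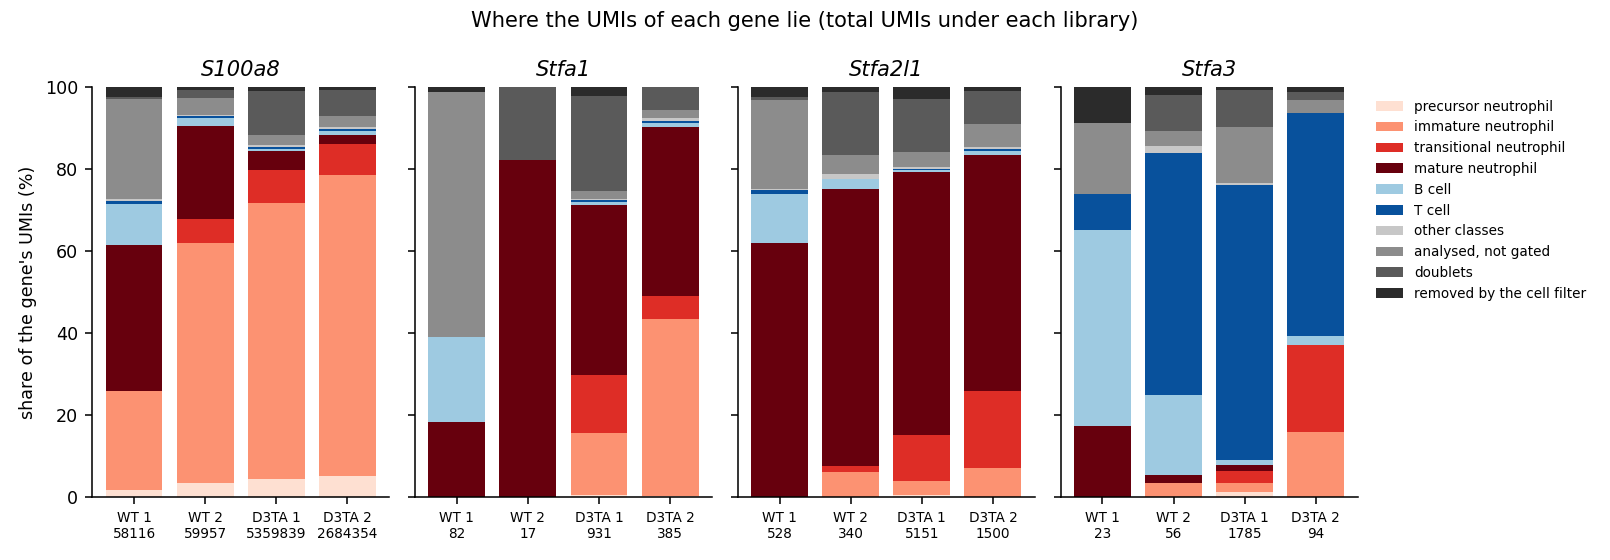
Share (%) of each gene's UMIs, on the vertical axis, found in each gated class or set of barcodes, by library, with the gene's total UMIs under each bar. S100a8 lies mainly in immature neutrophils in D3TA, Stfa2l1 in mature neutrophils in all 4 libraries, and Stfa3 in T cells in 3 of 4 libraries.

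Along maturation, the 2 calprotectin genes rose first. In precursors of the D3TA mice S100a8 made up 3.60% and 3.76% of all UMIs, and S100a9 4.19% and 3.66%. In immature cells S100a8 reached 11.9% and 11.3% and S100a9 15.9% and 12.7%. All 4 values were higher than in the precursors. In the fit of stages with the mouse as a block, the log2 difference between immature cells and precursors was 2.00 ± 0.17 (SE) for S100a8 and 2.20 ± 0.18 for S100a9, with adjusted p of 1.17e-08 and 6.42e-09 by edgeR's quasi-likelihood test. Of the 6 genes, 4 were called higher, beside 69.6% of all genes called in either direction and 34.9% called higher. With the mouse as a block, such p-values reflect how alike stage differences were in these 2 mice, not the spread of levels between them.

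The median immature cell of the D3TA mice held 1500.5 and 1276 S100a8 UMIs. Together the 2 genes took 27.8% and 24.0% of the RNA molecules counted in these cells. The few immature cells of WT mice were at 26.2% (9 cells) and 26.5% (16 cells), values given with no test. Transitional cells, whose immature and mature marker scores were within 2 times of each other, kept 28.6% and 24.7% in D3TA.

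In mature cells calprotectin was lower again. S100a8 fell to 6.67% and 4.45% of UMIs and S100a9 to 9.84% and 5.22% in D3TA. The log2 difference between mature and immature cells was -0.95 ± 0.16 for S100a8 and -0.84 ± 0.17 for S100a9 (edgeR adjusted p = 6.43e-05 and 0.000320). DESeq2 did not call either (adjusted p = 0.154 and 0.506), nor did edgeR without the block for the mouse (adjusted p = 0.149 and 0.287), although the direction was the same in both mice. All 6 genes were called in this comparison, 4 higher and 2 lower, beside 66.1% of all genes, 30.4% higher and 35.7% lower.

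Stfa1, Stfa2 and Stfa2l1 took the opposite course. Stfa2l1, at 3.27 and 0 CPM in D3TA precursors, stood at 6.01 and 6.13 in immature, 165 and 163 in transitional and 874 and 693 in mature cells. The count of 0 allows up to 0.821 CPM, and the 2 mice gave nearly the same value in immature and in transitional cells. Its log2 difference between mature and immature cells was 7.15 ± 0.23 (edgeR adjusted p = 3.45e-14). Stfa2 went from 0.0330 and 0.115 CPM in immature cells, where it had 1 and 2 UMIs in all (exact 95% intervals 0.000836 to 0.184 and 0.0139 to 0.414), to 30.6 and 22.4 in mature cells. With so few UMIs its fitted difference is no measure of size, and its adjusted p was 1.03e-10. Stfa1 rose from 4.59 and 9.51 in immature to 101.9 and 127 in mature cells, by 4.20 ± 0.30 on the log2 scale (edgeR adjusted p = 1.31e-09).

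Stfa1 and Stfa2l1 were also called higher in immature cells than in precursors. The log2 differences were 3.59 ± 0.70 for Stfa1 and 1.89 ± 0.41 for Stfa2l1, with edgeR adjusted p of 0.000197 and 0.000609. These rest on 6 and 1 Stfa1 UMIs and 22 and 0 Stfa2l1 UMIs in the precursors of the 2 mice. Of the 22 Stfa2l1 UMIs, 15 lay in 1 cell, and without barcodes shared between libraries the difference was 3.48. DESeq2 did not call Stfa2l1 there (adjusted p = 0.0685).

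Stfa3 followed neither course, with 1.39 and 0.859 CPM in immature, 15.2 and 11.6 in transitional and 6.34 and 0 in mature cells. It was highest in the transitional cells of both mice, but this rests on 9 of 539 and 6 of 265 cells. There, 5 cells held 92.5% and 95% of its UMIs. Without the cell with most Stfa3, its level was 8.63 and 6.39 CPM in transitional cells and 5.02 in mature cells of replicate 1. Its mature minus immature difference was 1.89 ± 0.65 (edgeR adjusted p = 0.0172), but D3TA replicate 2 had 0 Stfa3 UMIs in 382 mature cells, which allows up to 2.40 CPM, and without replicate 1 the difference turned to -2.14. In mature cells of D3TA replicate 1 it had 24 UMIs.

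Splitting the lineage more finely gave the same order, as the maturation plot shows. Cells after the precursor stage were placed in 5 equal ranges by the mature score's share of the summed immature and mature scores. S100a8 in the D3TA mice was at 118140 and 112120 CPM in the first range, highest in the second at 125470 and 119950, and at 60667 and 42142 in the last. Ngp, a secondary granule protein, fell much further, from 28706 and 28229 in the first to 372 and 459 in the last. Ngp and Ltf are gate markers and serve here only as a scale. Stfa2l1 was higher in each range than in the one before, from 3.16 and 2.72 through 28.0 and 44.4, 188 and 177, 527 and 509 to 1020 and 745.

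**Figure D2:**
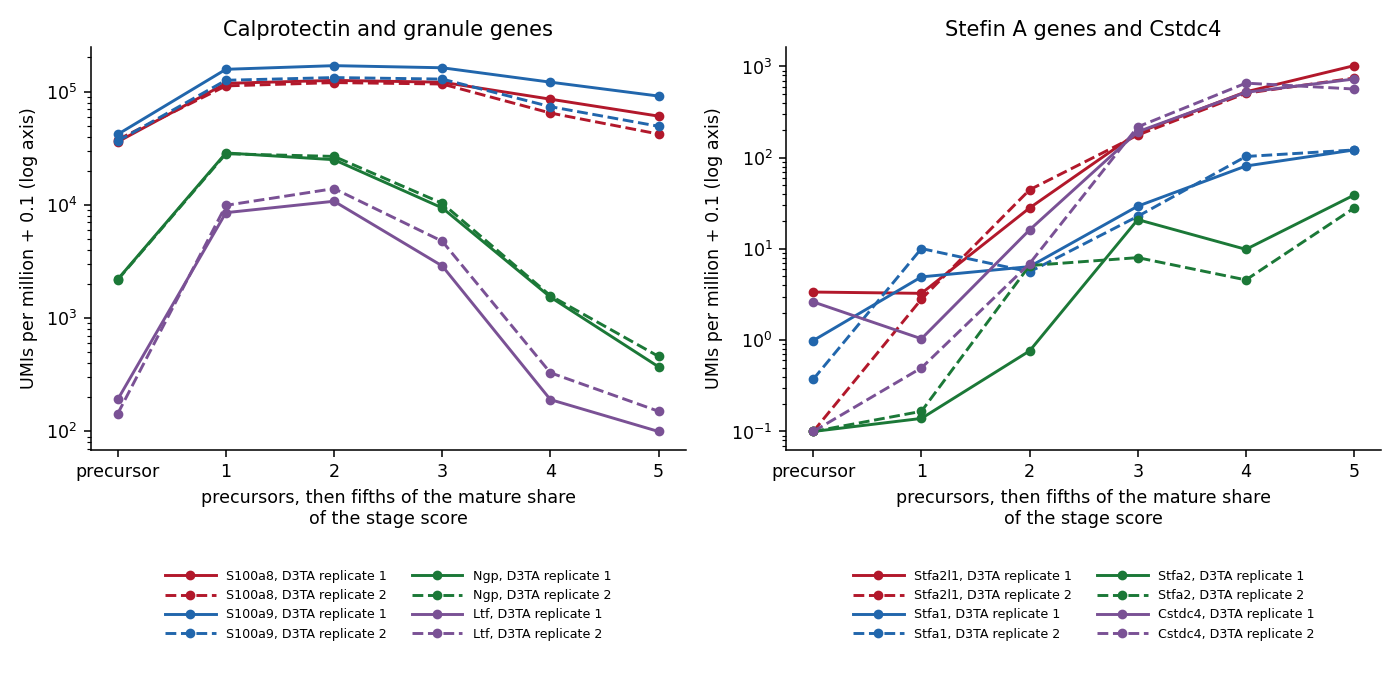
Level in CPM plus 0.1 (vertical log axis) against neutrophil stage in the 2 D3TA libraries, from precursors through 5 ranges of the mature score's share (horizontal axis), 1 line per gene and library. S100a8 peaks in the second range in both libraries, while Stfa2l1 goes from 3.16 and 2.72 in the first range to 1020 and 745 in the last.

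Cycling immature cells had less S100a8 per UMI counted than other immature cells, but more per cell. Among immature cells of D3TA mice, those with cell cycle transcripts had S100a8 at 115430 and 109890 CPM and those without at 128140 and 120380. The mean cell held 1925 and 1732 S100a8 UMIs if cycling and 1090.5 and 912 if not, and cycling cells were deeper (medians of 16649 and 15722 UMIs against 8845.5 and 8385). Stfa2l1 was at 2.94 and 2.97 in cycling and 13.4 and 13.3 in other immature cells. Stfa1 went the other way, at 5.64 and 10.9 CPM in cycling and 2.03 and 6.35 in other immature cells. Its values rest on 121 and 132 UMIs in cycling and 18 and 34 in other immature cells. Of the Stfa1 UMIs of all immature cells, 5 cells held 43.9% and 66.9%. For each of these 3 genes the sign in CPM was the same in both mice.

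Mature neutrophils allow the genotypes to be compared at 1 stage, with 218 and 124 WT and 936 and 382 D3TA cells. S100a8 made up 3.11% and 2.92% of UMIs in WT and 6.67% and 4.45% in D3TA. S100a9 made up 3.99% and 3.80% in WT and 9.84% and 5.22% in D3TA. For both genes the D3TA libraries were higher without overlap and differed from each other more than the WT libraries did. Among the 6478 genes tested in mature cells, 43.2% had no overlap either. The log2 fold changes were 1.16 ± 0.38 for S100a8 and 1.24 ± 0.44 for S100a9, and edgeR's quasi-likelihood test called neither (adjusted p = 0.272 and 0.307). DESeq2 called both (adjusted p = 0.00602 and 0.0152), as did edgeR without the filter on low counts and without either D3TA library. The fold changes then ranged from 0.56 to 1.72, and with 1 D3TA library left the spread came from the WT pair alone.

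The cells themselves spread widely. The median mature cell held 38.5 and 89 S100a8 UMIs in WT and 230.5 and 107.5 in D3TA. The 10th and 90th percentiles were 2 and 288 in WT replicate 1 and 61.5 and 539 in D3TA replicate 1, so single cells of the genotypes overlapped broadly. Median depth in this class was 3164 and 3619 UMIs in WT and 3877 and 3225 in D3TA. Ngp, a marker of the immature stage, differed with the genotype too. Per S100a9 UMI it was 0.00665 and 0.0110 in D3TA mature cells and 0.000377 and 0.000225 in WT. B cells of the same libraries also held Ngp, at 0.107 and 0.229 per S100a9 UMI in D3TA and 0.0486 and 0.105 in WT. Whether Ngp in mature cells is background or expression was not tested, nor was its part in the calprotectin difference. With a mature score of at least 4 times the immature score, the log2 fold changes were 1.021 for S100a8 and 1.114 for S100a9, neither called.

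Stfa1 was the 1 gene of the 6 called in mature neutrophils, beside 0.386% of the 6478 genes tested and 0.34% called higher. It stood at 22.5 and 29.9 CPM in WT and at 101.9 and 127 in D3TA. The groups did not overlap, and the log2 fold change was 2.38 ± 0.29 (edgeR adjusted p = 0.00612), called in every alternative tried (2.21 to 2.60). It rests on few cells. Stfa1 UMIs were seen in 3 of 218 and 7 of 124 WT cells and in 37 of 936 and 14 of 382 D3TA cells, or 1.38%, 5.65%, 3.95% and 3.66%. The shares of cells overlapped between genotypes, whereas the UMIs per cell with the gene, 5 and 2 in WT, were 10.4 and 11.4 in D3TA. The 5 cells with most Stfa1 held 49.2% of its UMIs in D3TA replicate 1 and 71.7% in D3TA replicate 2, where 1 cell alone held 51 of 159. The gate left much of the gene's RNA outside this class in 1 library. Of the 82 Stfa1 UMIs of WT replicate 1, mature neutrophils held 18.3%, B cells 20.7% and analysed cells without a class 59.8%. Cells without a class held 0% for WT replicate 2 and 1.93% and 2.08% for D3TA, where mature neutrophils held 82.4%, 41.5% and 41.3%. The part of this placement in the genotype difference was not tested.

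Stfa2l1 and Stfa2 were also higher in mature cells of both D3TA mice, without being called. Stfa2l1 stood at 493 and 491 CPM in WT and 874 and 693 in D3TA, without overlap, as in 43.2% of all genes tested. Its log2 fold change was 0.94 ± 0.23 (edgeR adjusted p = 0.132). Stfa2 stood at 10.5 and 6.41 in WT and 30.6 and 22.4 in D3TA (1.89 ± 0.49, adjusted p = 0.153). These Stfa2 values rest on 7 and 3 UMIs in WT and 116 and 28 in D3TA, in 2, 2, 22 and 3 cells. In D3TA replicate 2, 1 cell held 19 of the 28, and without it the level fell below that of WT replicate 1. With the top cell left out of every library, both D3TA libraries stayed above both WT libraries. The shares of cells with Stfa2, 0.917%, 1.61%, 2.35% and 0.785% by library, overlapped. Stfa2l1 was found in 25.7% and 35.5% of WT and 40.5% and 35.9% of D3TA mature cells. After each cell was thinned to 1000 UMIs these shares were 24.0%, 27.2%, 31.3% and 26.7%, which overlapped. In B cells, which are not known to make it, 0.0197% to 0.201% of thinned cells held a Stfa2l1 UMI. Stfa3 overlapped between genotypes, at 6.01 and 2.14 CPM in WT and 6.34 and 0 in D3TA. With 4, 1, 24 and 0 UMIs it did not pass the filter on low counts, so 5 of 6 genes were tested.

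Summed, the 4 stefin A genes made up 0.0532% and 0.0530% of UMIs in WT mature neutrophils and 0.101% and 0.0843% in D3TA. The exact two-sided permutation test again gave its smallest p of 0.333. Of the cells with Stfa1, 2 of 3, 4 of 7, 21 of 37 and 8 of 14 by library held Stfa2l1 as well. Among all mature cells, 25.7%, 35.5%, 40.5% and 35.9% held Stfa2l1. The depth of the cells with Stfa1 was not compared, so these counts are a description.

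**Figure D3:**
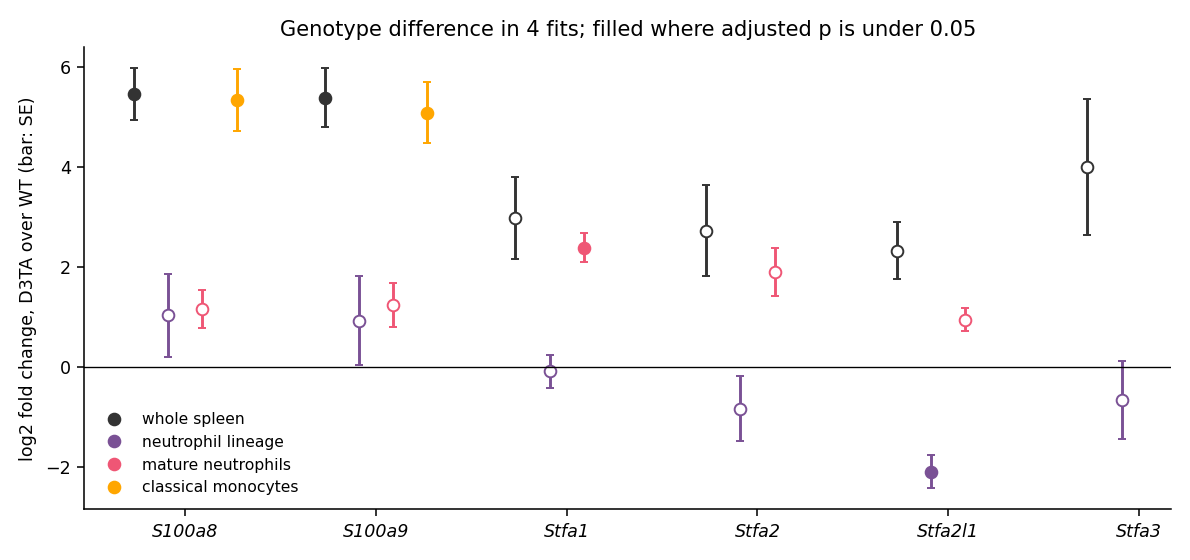
Log2 fold change of D3TA over WT with its SE (vertical axis) for the 6 genes in 4 fits, filled where edgeR's adjusted p is under 0.05. Calprotectin differs by over 5 in the whole spleen and in monocytes but by 0.93 to 1.24 within neutrophils. Stfa2l1 is at -2.10 in the lineage (filled) and at 0.94 in mature cells (not filled). Stfa1 and Stfa2 are at -0.09 ± 0.32 and -0.83 ± 0.64 in the lineage, neither filled nor clearly apart from no difference. In mature cells they are at 2.38 (filled) and 1.89 (not filled).

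Over the whole neutrophil lineage Stfa2l1 was lower in D3TA mice. It stood at 359 and 302 CPM (TMM-scaled) in WT and at 104 and 50.5 in D3TA. It was the 1 of the 6 genes that edgeR called, at -2.10 ± 0.33 on the log2 scale with an adjusted p of 0.00286, beside 22.7% of the 12401 genes tested and 11.8% called lower. Mature cells, which hold most of its UMIs, were a smaller part of the D3TA lineage as given above, and its level within mature cells was higher in both D3TA libraries. The part of this makeup in the difference was not tested. S100a8 stood at 39247 and 64031 in WT and 114820 and 95491 in D3TA (1.03 ± 0.82, adjusted p = 0.391), and S100a9 at 49390 and 87052 in WT and 153084 and 106066 in D3TA (0.93 ± 0.89, adjusted p = 0.478). DESeq2 called S100a8 (adjusted p = 0.0115), and edgeR without the filter on low counts called S100a8 and S100a9 (adjusted p = 6.7e-05 and 0.000316). Stfa1 was at 16.4 and 16.5 in WT and 16.8 and 14.02 in D3TA, a log2 difference of -0.09 ± 0.32, and its values overlapped.

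Outside the neutrophils, calprotectin UMIs were in nearly every cell of the D3TA libraries. B cells, which are not known to make S100a8, held it in 23.1% and 16.4% of cells in WT and in 100% and 99.5% in D3TA. Their median count was 0 and 0 in WT and 11 and 7 in D3TA, at median depths of 1461, 7979, 13249 and 7674 UMIs. After thinning to 1000 UMIs per cell, the shares were 12.3%, 3.89%, 57.3% and 57.7%. T cells were alike, with medians of 0, 0, 10 and 7, and so were macrophages with 0, 0, 9 and 7. In CPM the macrophages of D3TA mice were higher, with a mean of 2484 against 810 in B cells and 1147 in T cells. Their median depth was 1475 and 1251 UMIs. Whether these counts are background or expression was not tested. Mature neutrophils lay well above them in D3TA, at 230.5 and 107.5.

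**Figure D4:**
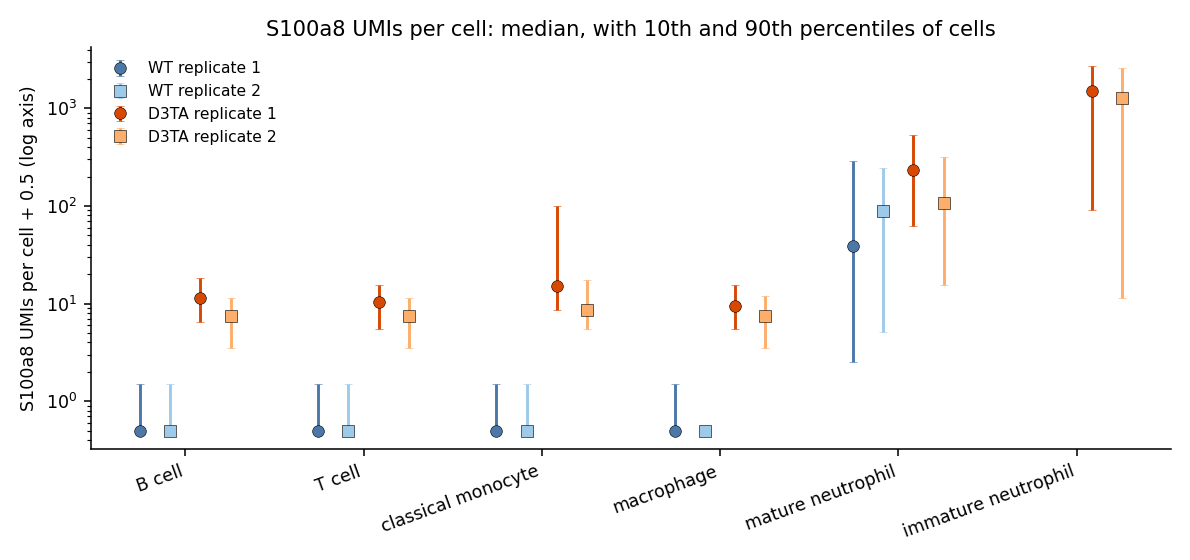
S100a8 UMIs per cell plus 0.5 (vertical log axis) in 6 classes (horizontal axis) and 4 libraries, with the median as a point and the 10th to 90th percentile of cells as a bar; classes with under 20 cells are left out. In D3TA, B cells, T cells, monocytes and macrophages sit together at medians of 7 to 14.5, under mature and immature neutrophils.

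Classical monocytes carry calprotectin in many tissues and were compared by genotype. S100a8 stood at 66.8 and 13.5 CPM in WT and at 2507 and 705 in D3TA, and S100a9 at 74.2 and 20.2 in WT and 2501 and 678 in D3TA. Both were called (log2 fold changes of 5.33 ± 0.63 and 5.08 ± 0.61, edgeR adjusted p of 2.48e-05 and 2.76e-05), beside 6.24% of 8152 genes and 4.38% called higher. The stefin A genes did not pass the filter there. S100a8 in B cells of the same libraries was also higher in D3TA, at 119 and 24.5 CPM in WT and 836 and 785 in D3TA. In D3TA replicate 2 monocytes thus lay below B cells in CPM, and in D3TA replicate 1 well above them. The median monocyte held 14.5 and 8 S100a8 UMIs in D3TA against 11 and 7 in B cells. The part of background in the monocyte difference was not tested.

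Some monocytes of D3TA replicate 1 held more. Their 90th percentile was 99 S100a8 UMIs against 18 in B cells of that library, and their mean was 45.3 against 12.0 in B cells. The ratio of S100a8 to S100a9 was 1.00 (exact 95% interval 0.973 to 1.03, counting error only) in these monocytes, but 0.70 (0.689 to 0.711) in B cells and 0.750 (0.749 to 0.751) in immature neutrophils. In D3TA replicate 2 the ratio in monocytes was 1.04 (0.950 to 1.14) and in B cells 0.937 (0.922 to 0.952), and the intervals touched.

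The ratio was also lower in mature cells than in precursors in both D3TA mice. From precursors through immature and transitional to mature cells it was 0.859, 0.750, 0.742 and 0.678 in replicate 1 and 1.03, 0.893, 0.906 and 0.851 in replicate 2. In replicate 2 the transitional value lay above the immature one (0.901 to 0.912 against 0.892 to 0.895), so the fall was not steady there. In WT mature cells it was 0.780 and 0.768. The 2 D3TA mice thus differed from each other at every stage by more than mature cells did between WT mice.

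Stfa3 was mainly found in T cells except in WT replicate 1, where B cells held 47.8% of its 23 UMIs. T cells held 8.70% and 58.9% of its UMIs in the WT libraries and 67.1% and 54.3% in the D3TA libraries. In T cells it stood at 0.197 and 3.15 CPM in WT and at 60.9 and 3.26 in D3TA, so D3TA replicate 1 lay apart and the other D3TA library was close to WT replicate 2. By cells, 2 of 1422, 7 of 1185, 89 of 2744 and 10 of 1906 T cells had a Stfa3 UMI. In D3TA replicate 1 these 89 cells held 1198 UMIs, up to 91 in a cell, which was 13.5 per cell with the gene. In B cells of that library 0.900% of cells held a Stfa3 UMI, with at most 2 in a cell. Classical monocytes, macrophages and NK cells had 0 Stfa3 UMIs in every library with 20 or more such cells, which allows from 0.847 to 17.7 CPM.

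**Figure D5:**
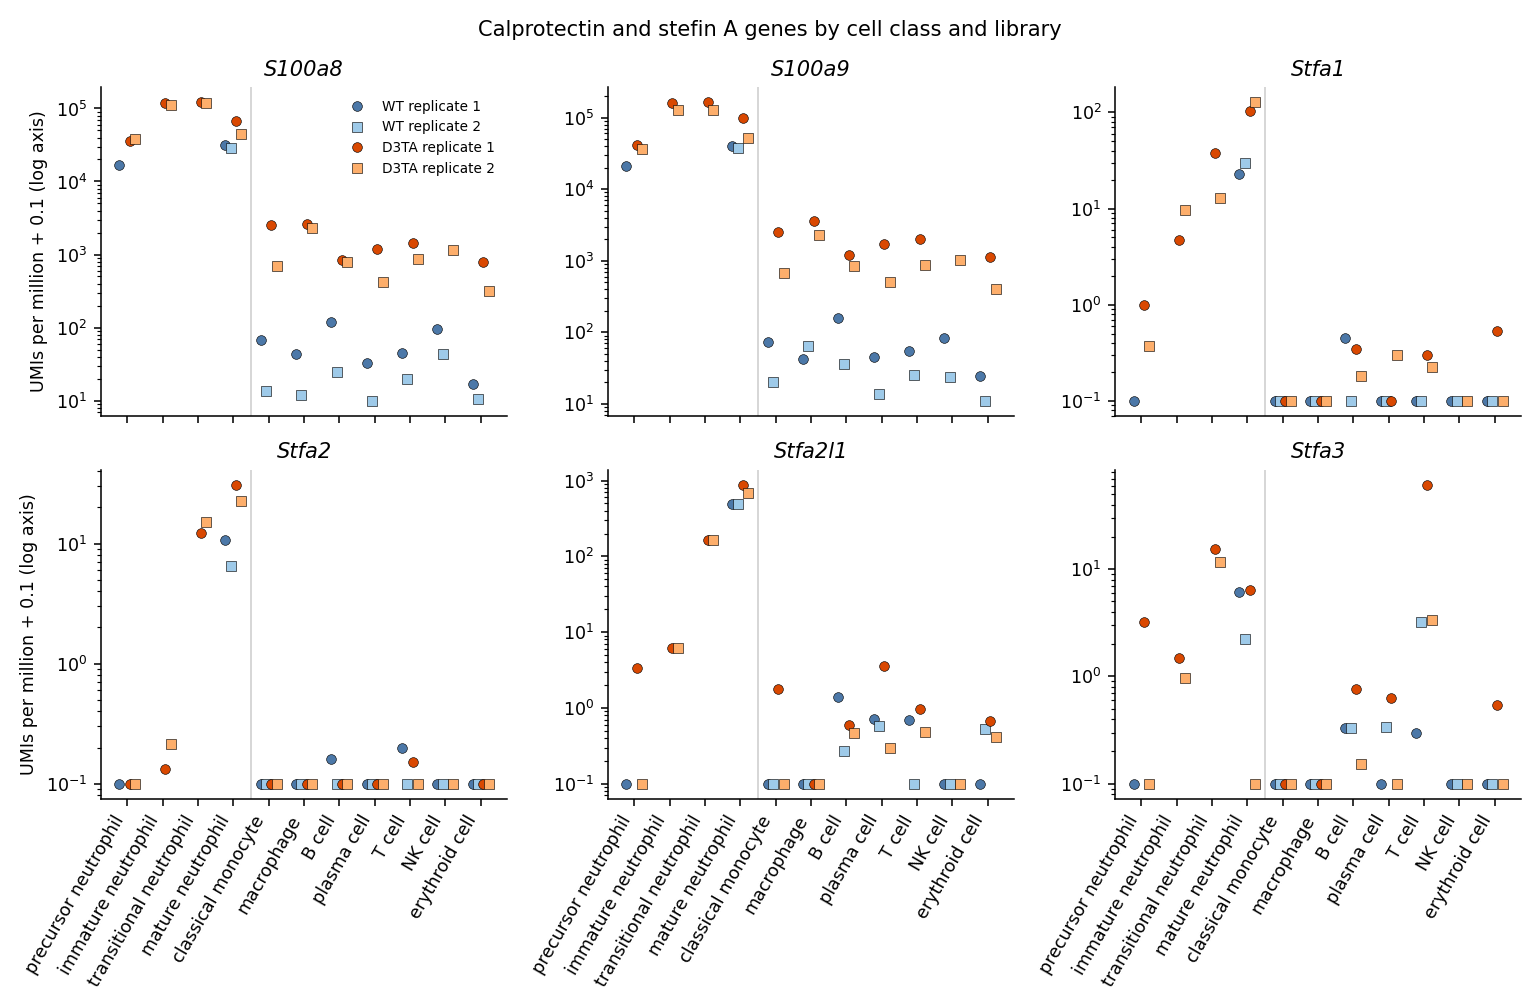
Level in CPM plus 0.1 (vertical log axis) of the 6 genes in 11 classes (horizontal axis) and 4 libraries, for classes with 20 or more cells; the grey line parts the neutrophil stages from other classes. S100a8 and S100a9 are above 10000 in every neutrophil stage shown, Stfa2l1 and Stfa2 are highest in mature neutrophils, and Stfa3 is highest in T cells of D3TA replicate 1.

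The T cells with Stfa3 were mostly CD4 cells. In D3TA replicate 1, Cd4 was detected in 91.0% of them against 50.8% of other T cells, and Cd8a in 4.49% against 21.5%. Pdcd1, the inhibitory receptor PD-1, was detected in 88.8% against 37.5%, and Foxp3, the factor of regulatory T cells, in 48.3% against 7.53%. These and the next genes were chosen after their values were seen, and no test was made. Npy, Dclk1 and Krt17, which are not T cell markers, were detected in 71.9%, 74.2% and 68.5% against 1.13%, 0.753% and 0.829%. Trbc1, 1 of the 2 constant segments of the T cell receptor beta chain, was in 6.74% against 34.5%, and Trbc2 in 98.9% against 97.0%. The cells with Stfa3 were deeper, with a median of 10494 UMIs against 6340. In WT replicate 2 and D3TA replicate 2, all 7 and 90% of the 10 cells had Cd4 and 71.4% and 70% had Pdcd1, but Foxp3, Npy and Krt17 were detected in 0 of these few cells. Dclk1 was detected in 42.9% of those in WT replicate 2, against 0.849% of other T cells, and in 0 of those in D3TA replicate 2.

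Genes with the most similar pattern were ranked by Pearson's r of log2 levels over 41 points, each a class in a library with at least 30 cells, among 6924 genes. The points share libraries and depth, so r is a description. For S100a8 the closest was S100a9 at 0.994, followed by Wfdc21 at 0.982, Lcn2, the iron-siderophore binding lipocalin 2, at 0.979, and Lrg1 at 0.927. Retnlg (0.926) and Cebpe (0.908) came next and are gate markers. S100a9 had the same first genes, with Ly6g, the neutrophil surface antigen, at 0.904. For the summed stefin A genes, the closest were Mirt2 and Il1r2, the decoy receptor of interleukin 1 and a gate marker, both at 0.931. Cstdc4, a neighbour in the stefin A cluster, followed at 0.925, then Nlrp12 at 0.922, Il1f9 at 0.907 and the chemokine Cxcl2 at 0.905.

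Other cystatin genes, 10 in the files, were looked at beside the stefins. Between mature and immature cells of D3TA mice, 6 of the 7 tested were called higher, beside 30.4% of all genes, with a median log2 difference of 4.45 against -0.15 over all genes. Cstdc4 had 269 and 340 CPM in WT and 644 and 622 in D3TA mature cells. It was the 1 of 5 tested there that was called by genotype, beside 0.386% of all genes (log2 fold change 1.31 ± 0.21, edgeR adjusted p = 0.0350). Over the lineage, 1 of 7 was higher and 3 lower, beside 22.7% of all genes called and 11.8% lower. Cst7, the cystatin F gene, rose by 2.11 ± 0.44 and Cstdc4 fell by 1.92 on the log2 scale, as did Cstdc5 by 2.69. Cstb, the stefin B gene, was the third called lower and is named after its value was seen.

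Of 13 other S100 genes, 6 were tested in the lineage, where S100a13 (1.33 ± 0.27) and S100a1 (1.41 ± 0.33) were called higher. Of all genes, 22.7% were called in either direction and 11.8% lower. With only 2 calls the list is not set apart from all genes. S100a4 was at -1.63 ± 0.70 (adjusted p = 0.125). In mature cells by genotype, the 5 tested had edgeR adjusted p from 0.405 to 0.937. Between stages, 4 of 6 were called higher in mature than in immature cells and 2 lower, the latter being S100a1 and S100a13, beside 66.1% of all genes called.

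Of the cathepsins, the proteases that stefins block, 1 of 8 was called in the lineage, beside 22.7% of all genes called and 11.8% called lower. A single call does not set this list apart from all genes. Ctss was lower in D3TA at -2.07 ± 0.42, while Ctsz (-0.53 ± 0.24) and Ctso (-0.72 ± 0.47) were not called. Of 7 calprotectin receptor genes, 4 were called lower in the lineage, beside 11.8% of all genes, with Cd14 at -2.44 ± 0.29, Myd88 at -1.24 ± 0.24 and Tlr4 at -0.89 ± 0.22. Between mature and immature cells, 6 of these 7 were called higher and 1 lower, beside 30.4% and 35.7% of all genes. In mature cells by genotype, edgeR's adjusted p lay between 0.361 and 0.948 for 6 receptor genes and between 0.128 and 0.978 for 6 cathepsins, and Cd14 was at -0.74 ± 0.35 (edgeR adjusted p = 0.450).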

How the data were processed

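Spleen libraries of 4 mice (2 WT, 2 D3TA, grouped by the labels) were analysed. The deposited values are raw UMI counts per gene and barcode. Per the file headers they were made with Cell Ranger 7.0.1, and the submitters' processing notes name mm10. Which transcript end was counted, whether intronic reads were used and the annotation release are not stated in these sources. Libraries held 9888 to 25829 barcodes and 81416981 to 143811696 UMIs.

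Cells had at least 500 UMIs, 250 genes and at most 10% mitochondrial UMIs. Scrublet in scanpy 1.11.5 (expected rate 6%) marked 1615 doublets, which were left out. Its own threshold failed in WT replicate 1, where the mean of the other 3 was used. A cell took the class with the highest mean scaled log marker level, given 2 or more detected markers and a next class at no more than 0.5 of it. Neutrophils were immature or mature where 1 stage score was at least 2 times the other. Sums of UMIs over the cells of a class in a library were compared by edgeR 4.0.16, using filterByExpr, TMM and the two-sided quasi-likelihood test with Benjamini-Hochberg adjustment over all genes and a threshold of 0.05. DESeq2 1.42.0 served as a second test. Stage fits had the mouse as a block, since both stages come from the same mouse. SE is the fold change over the root of F. A level in CPM is a gene's UMIs over all UMIs of the class, scaled to a common total; a count of 0 allows up to 3 counts. Ratios and shares have exact 95% intervals.

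Other alternatives were median-ratio scaling, no low-count filter, a replicate block, stricter cell filters and gates, doublets kept, all barcodes and each library left out. A mature score of 4 times the immature one, no shared barcodes, no T cells and no block were chosen after seeing the data. The genes and lists were chosen with earlier results of these data known. Named genes were the 6, the 6 most alike of at least 20 CPM for each pattern, and the 3 of each list with the smallest p in the lineage fit. Fits were tested on simulated data. There, 2-fold changes were called in 13.8% of cases in the whole spleen, 5.8% in the lineage, 25.6% in mature neutrophils and 14.4% in monocytes. For 4-fold changes these shares were 67%, 50%, 83.4% and 70.6%. Between stages, 73.6% (mature against immature) and 76% (immature against precursors) of 2-fold changes were called. Positions are from GENCODE's GRCm38 annotation, promoters from RefSeq. R 4.3.3 and Python 3.11.15 were used.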

Additional observations from a re-analysis of the deposited data

How the results depend on the processing

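Counts of called genes moved more than the genes described. In the whole spleen, 1116 genes were called, 2446 by DESeq2 and 239 to 5534 with a library left out. In mature neutrophils, 25 were called, against 55 by DESeq2, 303 without the low-count filter, 42 with the stricter mature score and 27 to 495 with a library left out (98 without WT replicate 1, 221 without D3TA replicate 1). In monocytes, 509 were called, 273 by DESeq2 and 379 to 849 with a library left out. The lineage count of 2814 kept within 1.5 times in every alternative. The cause of these shifts was not tested. Same-numbered WT and D3TA libraries share only a number (correlation of deviations -0.083 to 0.0596). With the replicate block, 1083 genes were called in the whole spleen, 3112 in the lineage, 37 in mature neutrophils and 559 in monocytes, and Stfa1, Stfa2 and Stfa2l1 passed in the whole spleen (adjusted p = 0.0193, 0.0367 and 0.0104). Without the block for the mouse, 5564 genes were called between mature and immature cells, against 7293, and 5418 between immature cells and precursors, against 7678.

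Stfa1 in the lineage was -0.09, turning to 0.039 without the low-count filter, and ranged from -0.28 to 0.0098 with a library left out. Stfa3 between mature and immature cells was 1.89, from -2.14 without D3TA replicate 1 to 2.17 without D3TA replicate 2, and it turned from -0.29 to 1.01 (DESeq2) and 3.46 (stricter gate) between immature cells and precursors. The lineage fall of Stfa2l1 and the rise of Stfa1 in mature cells passed in every alternative. Stfa2l1 in mature cells passed without the low-count filter and without D3TA replicate 2 (0.94 against 1.03 and 1.21). The D3TA minus WT difference in calprotectin share was 6.79 percentage points in the whole spleen (4.91 to 8.68 with a library left out) and 6.18 in mature cells (2.76 to 9.60). For the stefin A genes it was 0.00298 (0.00116 to 0.00480) and 0.0397 (0.0312 to 0.0482). With 2 mice a group, 1 library decides several of these calls.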
